A study of Mus musculus with 12 samples.

Results

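The genes described here encode the nuclear lamina and the LINC complex, the proteins that line the nucleus and tie it to the cytoskeleton. They are the rows of the deposited count table with 10 given symbols: the lamins Lmna, Lmnb1 and Lmnb2, the lamin-binding membrane proteins Lbr, Emd and Tmpo, the SUN genes Sun1 and Sun2, and the nesprin genes Syne1 and Syne2. All 10 were found among the 55291 symbols of the table, and all 10 passed the filter on low counts that left 19010 genes to be tested. The cells were activated CD8+ T cells from lymph node and spleen of Dock8 KO and WT mice (n = 3 per group in the labels), activated and expanded for 3 days. They were then kept for 24 h in a bovine collagen gel at 2 mg/mL or in media, which gave 4 groups of 3 bulk RNA-seq libraries: Dock8 KO cells in gel, Dock8 KO cells in media, WT cells in gel and WT cells in media. These are called KO gel, KO media, WT gel and WT media. The Dock8 allele is not given in the sources used here, and the labels do not say whether gel and media libraries came from the same mice, so p-values measure the spread between libraries.

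The lamina is a meshwork of intermediate filaments beneath the inner nuclear membrane. A-type lamins, products of Lmna, stiffen the nucleus and are low in most lymphocytes, while B-type lamins are made in nearly all cells. Lbr, emerin and the LAP2 proteins hold chromatin and lamins at the inner membrane. In the LINC complex, SUN proteins of the inner membrane bind the KASH domain of nesprins in the outer membrane, and nesprins reach actin filaments and microtubule motors in the cytoplasm. DOCK8 is an exchange factor for the small GTPase Cdc42, and the series title ties it to a central pool of actin and to protection of the nucleus as T cells migrate. The comparisons ask how collagen gel changed these transcripts in KO and in WT cells, how KO and WT cells differed in either culture, and whether KO and WT cells responded differently to the gel.

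Libraries held 28483064 to 61390702 counts in genes. Dock8 was lower in the 6 KO libraries without overlap, at 158 to 168 CPM in KO gel, 109 to 126 CPM in KO media, 378 to 450 CPM in WT gel and 363 to 443 CPM in WT media, where CPM is the count relative to the library total after scaling by TMM factors. The CD8 T cell markers Cd3d, Cd3e, Cd3g, Cd8a, Cd8b1, Trac, Gzmb and Prf1 were detected in all groups. They summed to 2840 to 2920 CPM in KO gel, 2850 to 3160 CPM in KO media, 3110 to 3400 CPM in WT gel and 3060 to 3370 CPM in WT media. Of these 8, 1 was called lower in KO gel against KO media (adjusted p 0.0417 by edgeR) and 1 against WT gel (adjusted p 0.0157 by edgeR). Of all genes tested, 9.74 and 7.71% were called lower in these comparisons. The KO gel libraries stood apart: at a common depth of 28483064 counts 28325 to 29969 genes were detected in them, against 24336 to 25076 in the other groups. Olfactory receptor genes, which T cells are not known to express, summed to 22.5 to 35.7 CPM in KO gel over 1408 symbols, against 10.1 to 13.2 CPM in the other groups. Mitochondrial transcripts took 2.27 to 2.61% of counts in KO gel, 1.4 to 2.31% in KO media, 1.41 to 1.64% in WT gel and 1.34 to 1.63% in WT media. In bulk RNA, fewer cells of a type and less RNA per cell cannot be told apart.

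In KO cells in gel the lamina transcripts shifted in opposite directions. The A-type lamin gene Lmna was 2.87 times as high as in KO media, the 2 B-type lamin genes and Lbr, Emd and Tmpo fell to between 77.3 and 83.2% of their KO media level, and both nesprin genes were higher. Of the 10 genes, 3 rose, 5 fell and 2 did not pass the test (edgeR's quasi-likelihood test, adjusted p under 0.05 by Benjamini-Hochberg across the whole table). In the same comparison 20.8% of all genes tested were called, 11.1% higher and 9.74% lower, and without KO gel replicate 1 the share called was 11.2%. The median log2 fold change of the 10 genes was −0.20, against −0.01 over all genes tested and −0.09 over the 9919 genes whose mean log2 CPM reached 3, of which 6.35% were called higher and 16.8% lower. In WT cells in gel none of the 10 passed the test. Lmna did so in 2 of 21 other settings. The first took same-numbered gel and media libraries of each genotype as pairs in 1 fit (adjusted p 0.0296 by edgeR). The labels do not give such pairs, and that fit called 0.9% of all genes there, against 0.0368% without pairs. The other setting had no filter on low counts and called 0.495% of all genes there. The per-library plot shows the gel and media levels of each gene.

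**Figure D1:**
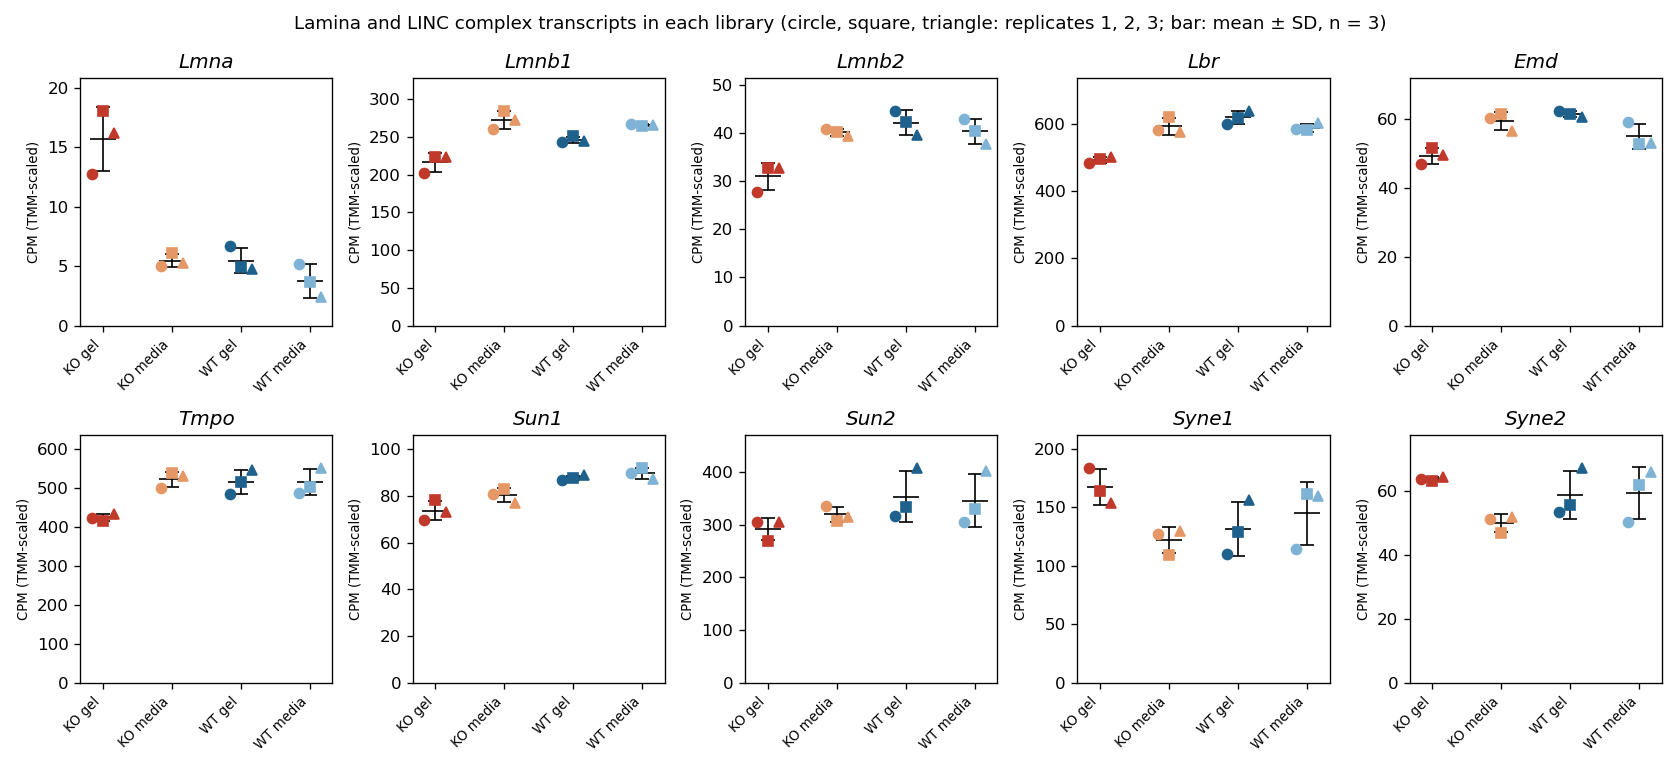
Levels of the 10 genes in each library, in TMM-scaled CPM on a linear axis from 0, with KO gel, KO media, WT gel and WT media from left to right. Circles, squares and triangles are replicates 1, 2 and 3, and bars give the mean ± SD (n = 3). The 3 KO gel libraries sit above all other libraries for Lmna, at 12.8 to 18.1 CPM, and below all other libraries for Lmnb1, Lmnb2, Lbr, Emd and Tmpo.

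The regions upstream of a RefSeq start are shown for the A-type lamin gene, which rose in KO gel, and for 4 genes that fell together there, as a description of their letters. The sequences are from RefSeq (GRCm38.p6), whose table held 9 of the 10 genes. They lie at chr3:88503387-88503602 for Lmna, chr10:80918246-80918495 for Lmnb2, chr1:181842402-181842651 for Lbr, chrX:74254437-74254686 for Emd and chr10:91171620-91171869 for Tmpo, on the plus strand for Emd and the minus strand for the others. Each ends at the base before the RefSeq start, except that 34 bases next to it which lie in an annotated exon were left out for Lmna, and each is 250 bases long, 216 for Lmna. The windows of Lmna, Lbr and Tmpo lie within the span of the gene, upstream of a start that is not the outermost one. The annotated span of Lmna reaches 88509956 on its upstream side, so its window may not be the promoter in use. Which start the cells used was not tested. Capitals mark matches on either strand to AP-1 (TGANTCA), the CRE (TGACGTCA), E2F (TTTCCCGC, TTTCGCGC, TTTGCCGC or TTTGGCGC), the CHR (TTTGAA) and the CCAAT box (CCAAT).
Lmna: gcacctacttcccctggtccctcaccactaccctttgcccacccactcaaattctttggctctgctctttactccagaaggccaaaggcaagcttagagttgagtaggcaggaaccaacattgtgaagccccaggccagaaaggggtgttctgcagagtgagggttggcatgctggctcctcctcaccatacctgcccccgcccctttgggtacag
Lmnb2: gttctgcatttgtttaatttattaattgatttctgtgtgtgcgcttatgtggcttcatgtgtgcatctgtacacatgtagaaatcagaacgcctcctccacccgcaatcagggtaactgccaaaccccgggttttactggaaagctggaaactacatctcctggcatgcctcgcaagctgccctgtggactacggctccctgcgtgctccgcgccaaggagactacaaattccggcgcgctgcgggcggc
Lbr: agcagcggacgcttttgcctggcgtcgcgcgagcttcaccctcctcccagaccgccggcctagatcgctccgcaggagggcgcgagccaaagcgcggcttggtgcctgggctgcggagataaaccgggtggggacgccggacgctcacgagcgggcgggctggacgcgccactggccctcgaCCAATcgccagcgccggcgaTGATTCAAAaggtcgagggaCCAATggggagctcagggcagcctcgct
Emd: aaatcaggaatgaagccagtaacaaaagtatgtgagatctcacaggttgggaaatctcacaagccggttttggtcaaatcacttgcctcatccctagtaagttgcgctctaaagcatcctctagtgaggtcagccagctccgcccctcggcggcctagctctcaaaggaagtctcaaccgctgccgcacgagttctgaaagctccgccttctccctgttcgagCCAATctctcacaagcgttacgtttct
Tmpo: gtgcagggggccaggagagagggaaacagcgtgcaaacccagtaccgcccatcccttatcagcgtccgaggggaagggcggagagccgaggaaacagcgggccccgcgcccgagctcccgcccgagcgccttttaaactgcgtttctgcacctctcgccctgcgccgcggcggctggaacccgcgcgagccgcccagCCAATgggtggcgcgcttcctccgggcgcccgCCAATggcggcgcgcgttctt

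The CCAAT box was found upstream of Lbr (68 and 28 bases from the start), Emd (27 bases) and Tmpo (53 and 21 bases), and not upstream of Lmna or Lmnb2. Among the other genes with an entry it was found for Sun1 (97 and 15 bases) and Sun2 (85 and 41 bases) and not for Syne1 or Syne2. The window of Syne1 also lies within the span of its gene, and that of Syne2 runs across the annotated start of its gene. The search covered all 250 bases of each window, as for all promoters, Lmna included, where exon bases are left out only of the sequence as printed. Of all 27018 promoters in the table, 34.5% held it in the 250 bases upstream. Lbr also held an AP-1 match, TGATTCA, 48 bases from the start, which overlaps a CHR match at 45 bases; AP-1 matches were in 6.85% and CHR matches in 16.3% of all promoters. Sun2 held a CHR match at 95 bases. No window held the CRE or an E2F match, which 1.6 and 1.92% of promoters held, and all 9 held the GC box GGGCGG, which 33% held and which is left in lower case. A match is a description of letters and not evidence that a factor binds there. The lack of a match in a window within a gene does not describe the other starts of that gene.

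Lmna (chromosome 3, 88480147 to 88509956, minus strand, GRCm38 with GENCODE M21 genes) encodes lamins A and C, which differ by splicing and were counted together. It had 12.8, 18.1 and 16.2 CPM in KO gel, 5.03, 6.09 and 5.28 CPM in KO media, 6.67, 4.94 and 4.74 CPM in WT gel and 5.19, 3.65 and 2.39 CPM in WT media. Every KO gel library lay above every other library, while KO media and WT gel overlapped, as did WT gel and WT media. The counts behind these values ran from 485 to 723 in KO gel and from 112 to 320 in the other groups, so Lmna rested on far fewer counts than the other 9 genes, which had 1048 to 36939.

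Between KO gel and KO media the log2 fold change of Lmna was 1.52 (SE 0.22, adjusted p 0.00045, edgeR's quasi-likelihood test). Between KO gel and WT gel it was also 1.52 (SE 0.22, adjusted p 0.000712), a comparison that shares the KO gel libraries with the first. In WT gel against WT media the value was 0.54 (SE 0.23, 95% interval 0.08 to 0.99, unadjusted p 0.0364 and adjusted p 0.901 by edgeR). With same-numbered gel and media libraries of each genotype taken as 1 mouse, that value was 0.57 with an adjusted p of 0.0296 by edgeR. The labels do not state this pairing. The fit also paired the KO libraries, whose same-numbered deviations correlated at 0.2 at most. In KO media against WT media Lmna was at 0.54 (SE 0.23, adjusted p 0.625 by edgeR). With no filter on low counts Lmna was called there (adjusted p 0.0136 by edgeR) and in WT gel against WT media. That setting called 1.1 and 0.495% of all genes in these 2 comparisons. The gel response in KO minus that in WT was 0.98 on the log2 scale (SE 0.32, 95% interval 0.36 to 1.61) and did not pass the test (adjusted p 0.106 by edgeR). It passed in only 1 of 12 single omissions, without WT media replicate 3 (adjusted p 0.0267), where 1.78% of all genes were called. Other omissions gave adjusted p up to 0.212.

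Some markers of other cells moved with Lmna in KO gel and others did not. The 6 erythroid and platelet markers summed to 11.1 to 25 CPM in KO gel, 5.02 to 7.61 CPM in KO media, 3.38 to 5.87 CPM in WT gel and 3.11 to 5.19 CPM in WT media, and of 3 that could be tested in KO gel against KO media 1 rose, Itga2b (log2 fold change 1.55, adjusted p 5.67e-05 by edgeR). The 2 mast cell markers summed to 2.19 to 4.99 CPM in KO gel, 1.02 to 2.89 CPM in KO media, 0.831 to 1.11 CPM in WT gel and 0.47 to 1.05 CPM in WT media, and 1 of them rose, Fcer1a (2.22, adjusted p 0.0139). Of the 3 CD4 T cell markers, 2 rose: Cd4 lay at 3.85 to 7.16 CPM in KO gel and at no more than 3.78 CPM in the other groups (0.81, adjusted p 0.0348), and Cd40lg averaged 0.689 CPM in KO gel and 0.278 CPM in KO media (1.30, adjusted p 0.0145). The third, Foxp3, reached 0.633 CPM in KO gel and 4.36 CPM in WT gel, and the 3 together summed to 4.88 to 8.6 CPM in KO gel and 3.18 to 6.78 CPM in the other groups. The 7 macrophage and dendritic cell markers summed to 36.7 to 48.5 CPM in KO gel, 40.6 to 48.6 CPM in KO media, 20.4 to 36.7 CPM in WT gel and 20.4 to 37.2 CPM in WT media. Itgax (36.5 CPM in KO gel and 38.1 CPM in KO media) and Cd68 made up nearly all of that sum, and neither passed the test. The other 5 were too low to be tested, with higher means in KO gel than in KO media, such as Lyz2 at 0.244 and 0.102 CPM and Csf1r at 0.0675 and 0 CPM. The 6 stromal cell markers summed to 119 to 132 CPM in KO gel and 110 to 147 CPM in the other groups, nearly all of it Pecam1 (125 CPM in KO gel), and 0 of 3 tested passed by edgeR. The 4 B cell markers summed to 0.95 to 1.07 CPM in KO gel and 0.534 to 0.831 CPM in the others, and the 2 NK cell markers to 0.238 to 0.449 CPM in KO gel and 0.151 to 0.969 CPM in the others. Col3a1 was at 0 in KO gel, and of the 3 neutrophil markers S100a8 and S100a9 were at 0 there. The part of these cell types in the level of Lmna was not tested. At the rate per kilobase of exon that olfactory receptor genes had, the exons of Lmna would take 0.0337 to 0.0535 CPM in KO gel, against its measured 12.8 to 18.1 CPM.

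Lmnb1 (chromosome 18, 56707813 to 56753424, plus strand), the main B-type lamin gene here, had 202, 223 and 224 CPM in KO gel, 261, 285 and 272 CPM in KO media, 243, 251 and 245 CPM in WT gel and 267, 265 and 266 CPM in WT media. All KO gel libraries were below all others, and WT gel was below WT media in every library. Lmnb1 fell in KO gel against KO media (log2 fold change −0.33, SE 0.06, adjusted p 0.00242 by edgeR). Against WT gel it was −0.19 (SE 0.06) and did not pass (adjusted p 0.058 by edgeR). It passed in 2 of 12 single omissions, with adjusted p 0.0396 without KO media replicate 2 and 0.0402 without WT media replicate 1. Other omissions gave adjusted p up to 0.224. In WT gel against WT media it was −0.11 (SE 0.06, 95% interval −0.23 to 0.01).

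Lmnb2 (chromosome 10, 80901203 to 80918245, minus strand), the second B-type lamin gene, had 27.7, 32.6 and 32.6 CPM in KO gel, 40.8, 40.1 and 39.3 CPM in KO media, 44.6, 42.2 and 39.6 CPM in WT gel and 42.8, 40.4 and 37.7 CPM in WT media. The KO gel libraries lay below all others, and the other 3 groups overlapped. Lmnb2 fell in KO gel against KO media (log2 fold change −0.37, SE 0.08, adjusted p 0.00455 by edgeR) and against WT gel (−0.45, SE 0.08, adjusted p 0.00191). Between WT gel and WT media it was 0.07 (SE 0.08). Lmnb2 was 1 of 2 genes whose gel response differed between KO and WT by the test of that difference (−0.44, SE 0.11, adjusted p 0.0429 by edgeR). That call was lost when any 1 library other than WT gel replicate 3 or WT media replicate 1 was left out, with adjusted p between 0.0632 and 0.1.

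Within each library, Lmna made up a larger share of the lamin transcripts in KO gel. On CPM per kilobase of annotated exon, Lmna was 2.85, 3.6 and 3.22% of the 3 lamin genes in KO gel, 0.875, 0.978 and 0.888% in KO media, 1.22, 0.887 and 0.875% in WT gel and 0.879, 0.627 and 0.414% in WT media. The KO gel values did not overlap with any other group. The ratio of Lmna to both B-type genes was 0.0333 ± 0.004 in KO gel, 0.00922 ± 0.000572 in KO media, 0.01 ± 0.00197 in WT gel and 0.00644 ± 0.00236 in WT media (SD, n = 3 each). Lmnb1 stood to Lmnb2 at 10.1 ± 0.393 in KO gel, 9.86 ± 0.53 in KO media, 8.47 ± 0.534 in WT gel and 9.58 ± 0.585 in WT media per kilobase. These ratios are descriptions with no test, and a ratio within a library shows unequal change and not which gene changed.

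**Figure D2:**
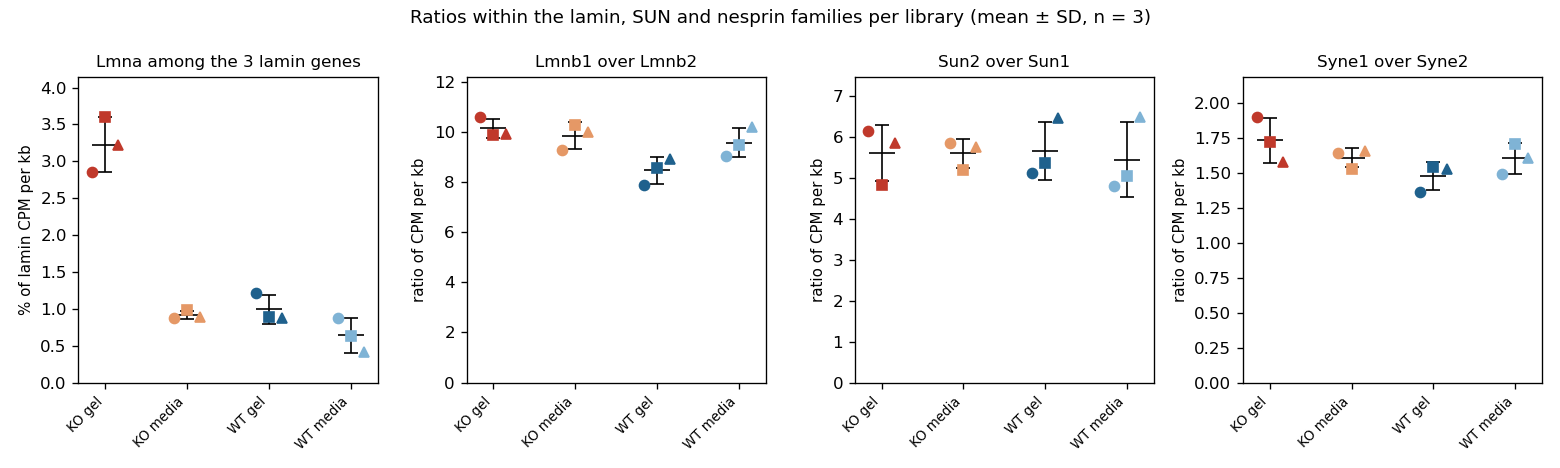
Ratios of CPM per kilobase of exon in each library, with KO gel, KO media, WT gel and WT media from left to right on linear axes from 0. Circles, squares and triangles are replicates 1, 2 and 3, with the mean ± SD (n = 3). Lmna as a share of the 3 lamin genes is 2.85 to 3.6% in KO gel and at most 1.22% elsewhere, while the other 3 ratios overlap between KO gel and KO media. Lmnb1 over Lmnb2 and Syne1 over Syne2 are higher in KO gel than in WT gel without overlap, and both overlap between KO gel and WT media.

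Lbr (chromosome 1, 181815335 to 181843046, minus strand) encodes the lamin B receptor, which binds B-type lamins and heterochromatin and also carries a sterol reductase domain. It had 483, 494 and 502 CPM in KO gel, 581, 621 and 576 CPM in KO media, 600, 617 and 639 CPM in WT gel and 584, 580 and 602 CPM in WT media. KO gel lay below all other libraries. Lbr fell in KO gel against KO media (log2 fold change −0.27, SE 0.06, adjusted p 0.00889 by edgeR) and against WT gel (−0.33, SE 0.06, adjusted p 0.00326), and was 0.07 (SE 0.06) in WT gel against WT media. The difference between the genotypes' gel responses was −0.34 (SE 0.09) and did not pass (adjusted p 0.0507 by edgeR). It passed in only 1 of 12 single omissions, without WT media replicate 1 (adjusted p 0.0308), where 10.3% of all genes were called. Other omissions gave adjusted p up to 0.133. Of the exon bases of Lbr, 10.7% also lie in exons of Dnah14 on the opposite strand or of Gm26004, and the strand setting of the counting is not given in the sources used here.

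Emd (chromosome X, 74254687 to 74261548, plus strand) encodes emerin, a LEM domain protein that binds lamins and the chromatin protein BAF. It had 46.8, 51.4 and 49.4 CPM in KO gel, 60.3, 61.3 and 56.4 CPM in KO media, 62.3, 61.4 and 60.4 CPM in WT gel and 59.1, 52.7 and 53 CPM in WT media. KO gel was below all other libraries, while WT gel was above all WT media libraries. Emd fell in KO gel against KO media (log2 fold change −0.27, SE 0.06, adjusted p 0.0103 by edgeR) and against WT gel (−0.32, SE 0.06, adjusted p 0.00518). In WT gel against WT media it was 0.16 (SE 0.06, unadjusted p 0.0269 and adjusted p 0.895 by edgeR). Its gel response differed between KO and WT (−0.43, SE 0.09, adjusted p 0.0247 by edgeR). That call was lost without KO gel replicate 1 or 3, KO media replicate 1, WT gel replicate 2, or WT media replicate 2 or 3, with adjusted p between 0.0525 and 0.0745. Of the exon bases of Emd, 13.6% are shared with Gm14686, a pseudogene on the same strand, so some of its reads could have been counted elsewhere.

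Tmpo (chromosome 10, 91147571 to 91181315, minus strand) encodes the LAP2 proteins, some anchored in the inner membrane and one, LAP2 alpha, a nucleoplasmic partner of A-type lamins. The gene-level counts do not separate them. It had 422, 415 and 433 CPM in KO gel, 500, 536 and 529 CPM in KO media, 483, 513 and 544 CPM in WT gel and 487, 502 and 551 CPM in WT media. KO gel was below all other libraries, and the other 3 groups overlapped. Tmpo fell in KO gel against KO media (log2 fold change −0.30, SE 0.07, adjusted p 0.00929 by edgeR) and against WT gel (−0.28, SE 0.07, adjusted p 0.0173). The call against WT gel was lost without KO gel replicate 1 or 2 or WT gel replicate 2 or 3, with adjusted p between 0.0514 and 0.0663. In WT gel against WT media the value was 0.00 (SE 0.07, 95% interval −0.14 to 0.14).

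Sun1 (chromosome 5, 139200637 to 139249840, plus strand) and Sun2 (chromosome 15, 79724070 to 79742536, minus strand) encode the inner membrane part of the LINC bridge. Sun1 had 69.8, 78.2 and 73.1 CPM in KO gel, 80.6, 83.1 and 77.1 CPM in KO media, 86.8, 87.5 and 88.8 CPM in WT gel and 89.6, 92.1 and 87.1 CPM in WT media. Every KO library lay below every WT library, and KO gel overlapped with KO media. Sun1 fell in KO gel against WT gel (log2 fold change −0.25, SE 0.06, adjusted p 0.0124 by edgeR, and 0.0664 without KO gel replicate 1). In KO media against WT media it was −0.16 (SE 0.06, unadjusted p 0.018 and adjusted p 0.577 by edgeR), and in KO gel against KO media −0.12 (SE 0.06, adjusted p 0.149).

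Sun2 had 305, 269 and 305 CPM in KO gel, 336, 308 and 316 CPM in KO media, 317, 335 and 409 CPM in WT gel and 306, 330 and 403 CPM in WT media. Every KO gel library was below every KO media and WT gel library. Neither comparison passed the test by edgeR, with log2 fold changes of −0.13 (SE 0.11, 95% interval −0.34 to 0.09, adjusted p 0.419) against KO media and −0.27 (SE 0.11, adjusted p 0.112) against WT gel. The Sun2 to Sun1 ratio per kilobase averaged 5.6 in KO gel, 5.59 in KO media, 5.64 in WT gel and 5.43 in WT media.

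Syne1 (chromosome 10, 5020917 to 5551482, minus strand) and Syne2 (chromosome 12, 75818134 to 76110926, plus strand) encode nesprins, whose giant forms bind actin and whose many shorter forms lack the actin-binding end. Syne1 had 184, 164 and 154 CPM in KO gel, 127, 109 and 130 CPM in KO media, 110, 129 and 156 CPM in WT gel and 114, 161 and 160 CPM in WT media. Syne2 had 63.8, 63 and 64.3 CPM in KO gel, 51.2, 46.8 and 51.8 CPM in KO media, 53.5, 55.6 and 67.3 CPM in WT gel and 50.3, 61.9 and 65.8 CPM in WT media. For both genes KO gel lay above KO media in every library and overlapped with both WT groups, whose libraries were spread more widely.

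Both nesprin genes rose in KO gel against KO media, Syne1 by 0.45 on the log2 scale (SE 0.14, adjusted p 0.0383 by edgeR) and Syne2 by 0.35 (SE 0.10, adjusted p 0.0239). Leaving out any 1 of the 6 KO libraries ended both calls, with adjusted p between 0.0534 and 0.147 for Syne1 and between 0.0523 and 0.0838 for Syne2, while the log2 fold changes stayed between 0.36 and 0.51 and between 0.3 and 0.37. Against WT gel, Syne1 was 0.34 (SE 0.14, adjusted p 0.128 by edgeR) and Syne2 was 0.11 (SE 0.10, adjusted p 0.478). For Syne1 the adjusted p was 0.041 without WT gel replicate 3 and up to 0.38 without other single libraries. In KO media against WT media both were −0.25 (SE 0.14 for Syne1 and 0.10 for Syne2), and neither passed (adjusted p 0.73 and 0.606 by edgeR). The gel response in KO minus that in WT was 0.59 (SE 0.20, adjusted p 0.127 by edgeR) for Syne1 and 0.36 (SE 0.14, adjusted p 0.176) for Syne2. Without WT media replicate 1 these adjusted p were 0.0167 and 0.0234, where 10.3% of all genes were called. That was the only 1 of 12 single omissions to change either call, and others gave adjusted p up to 0.282 and 0.346. At the per-kilobase rate of olfactory receptor genes, the exons of Syne1 would take 0.234 to 0.371 CPM in KO gel, against its measured 154 to 184 CPM. The ratio of Syne1 to Syne2 per kilobase was 1.73 ± 0.16 in KO gel, 1.61 ± 0.07 in KO media, 1.48 ± 0.101 in WT gel and 1.6 ± 0.11 in WT media (SD, n = 3 each).

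Read by comparison, KO gel against WT gel gave 1 of the 10 genes higher (Lmna) and 5 lower (Lmnb2, Lbr, Emd, Tmpo and Sun1), where 14.8% of all genes tested were called, 7.12% higher and 7.71% lower. DESeq2 and limma-voom also called Lmnb1 lower there (adjusted p 0.0146 and 0.0489), which made 7 genes. Of all genes these 2 tools called 12.9 and 14.2% there. Between WT gel and WT media 0 of the 10 passed by edgeR, as by DESeq2 and limma-voom. Lmna and Emd had an unadjusted p under 0.05, as did 5.43% of all genes, and 0.0368% of all genes were called, 0.0316% higher and 0.00526% lower. In KO media against WT media 0 of the 10 passed by any of these 3 tools. Lmna, Sun1 and Syne2 had an unadjusted p under 0.05, as did 7.49% of all genes, and 0.189% of all genes were called, 0.0263% higher and 0.163% lower. The test of the difference between gel responses called 2 of the 10 (Lmnb2 and Emd, both lower), where 3.35% of all genes were called, 1.89% higher and 1.45% lower. An unadjusted p under 0.05 was found for 8 of the 10, Sun1 and Sun2 not among them, and for 19.6% of all genes. DESeq2 called 4 (Lbr and Tmpo in addition) and limma-voom 3 (Lbr in addition), and of all genes 5.14 and 3.21%. The share of all genes called rests on single libraries. In KO gel against KO media the count fell by over 1.5 times without KO gel replicate 1 or 3 or KO media replicate 1. In KO gel against WT gel it did so without any KO gel library or WT gel replicate 2, to 8.31% at the lowest. In the difference it moved as far without any library other than KO media replicate 2 or WT gel replicate 3, between 0.949% without WT media replicate 2 and 10.3% without WT media replicate 1. In 9 of the 10 genes no KO gel library overlapped with KO media, against 47.4% of all genes. The corresponding counts were 8 in KO gel against WT gel (38.2%), 2 in WT gel against WT media (9.18%) and 1 in KO media against WT media (10.7%).

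The scaling bears on the falls more than on Lmna. With total counts in place of TMM factors, 5 of the 10 genes were called in KO gel against KO media, 3 higher and 2 lower, and Lbr, Emd and Tmpo no longer passed (log2 fold changes −0.23, −0.23 and −0.26). In KO gel against WT gel 2 were then called, Lmna higher and Lmnb2 lower. Over all genes that setting gave 2007 higher and 869 lower calls in KO gel against KO media, in place of 2111 and 1851. It gave 1875 and 407 in KO gel against WT gel, in place of 1354 and 1465, and moved the median log2 fold change of all genes there to 0.10.

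**Figure D3:**
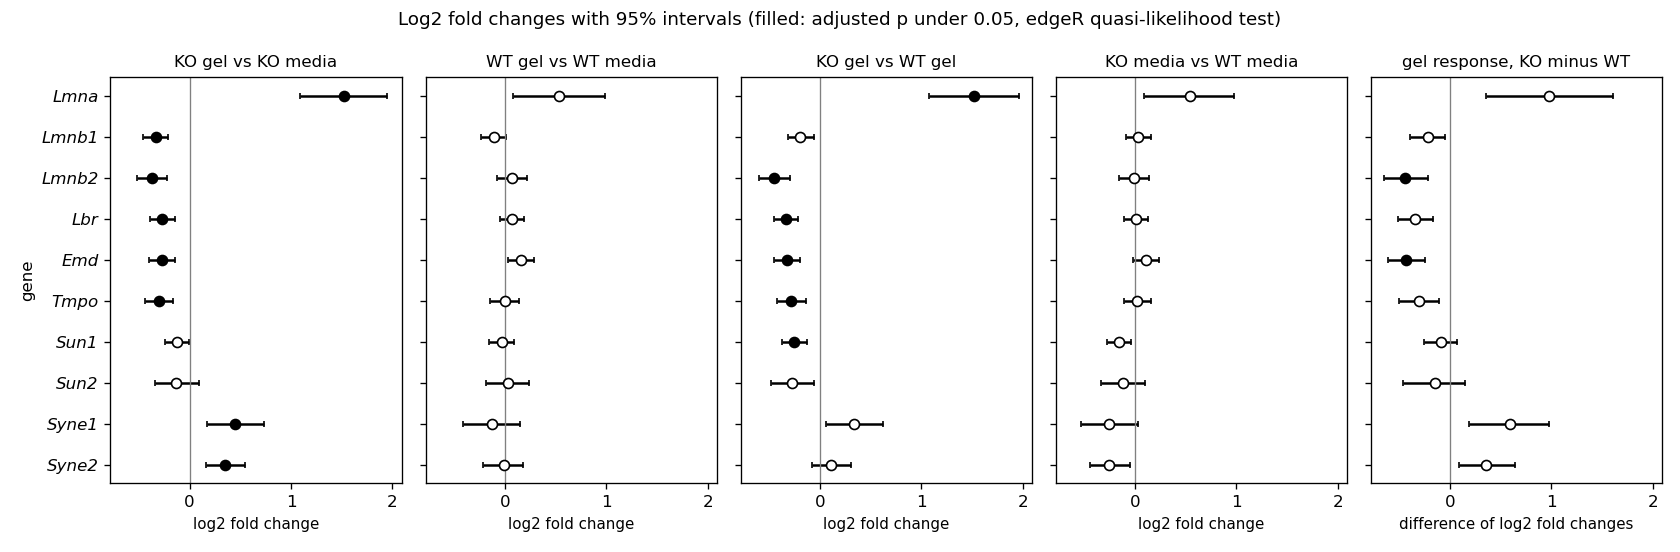
Log2 fold changes of the 10 genes in 4 comparisons and, in the panel on the right, the difference of the gel responses (KO minus WT). Points are estimates on a shared axis with approximate 95% intervals (normal, from the SE), which are narrower than the test implies, so that Sun1 in KO gel against KO media has an interval short of 0 and an unadjusted p of 0.0572 by edgeR, and filled points have an adjusted p under 0.05 by edgeR's quasi-likelihood test. Filled points are seen for 8 genes in KO gel against KO media, 6 in KO gel against WT gel and 2 in the difference, and for none in WT gel against WT media or in KO media against WT media.

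Levels per kilobase of exon place Lbr highest, with means of 104 CPM per kilobase in KO gel, 124 in KO media, 130 in WT gel and 124 in WT media. Lmnb1 followed at 73.1 in KO gel, 92.1 in KO media, 83.1 in WT gel and 89.9 in WT media, then Sun2 at 54.1 in KO gel, 59 in KO media, 65.2 in WT gel and 63.9 in WT media. Tmpo was at 38.5 in KO gel and 46.7 to 47.4 in the other groups, but its place depends on the length used: on its longest transcript it was at 95.4 in KO gel and 116 to 117 in the others. Emd (19.5 in KO gel), Sun1 (9.7) and Lmnb2 (7.22) came next. Syne1 (4.13), Lmna (2.68) and Syne2 (2.38) were lowest in KO gel, and there the last pair differed by less than the SD of Lmna (0.456). In WT media Lmna was at 0.641, the lowest of the 10. Its mean log2 CPM of 2.68 over all libraries stood at percentile 45.4 of the genes tested, against percentiles 72.7 to 99.1 for the other 9.

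Genes with the most similar pattern over the 12 libraries were sought among the 9919 genes whose mean log2 CPM reached 3, by Pearson's r of log2 CPM, for Lmna, Lmnb1 and Syne1. The libraries share the group differences, so r is a description. Nearest to Lmna were Samsn1 (0.96), Prrg4 (0.956), Slc19a2 (0.952), Tpd52 (0.943) and Cd80 (0.94). Nearest to Lmnb1 were Ovca2 (0.977), Ubxn8 (0.972), Hmgb1 (0.972), Rnaseh2b (0.963) and Acadl (0.963). Nearest to Syne1 were Rapgef2 (0.958), Dnah8 (0.957), Cplane1 (0.954), Ddhd1 (0.953) and Slc38a9 (0.95).

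Of 21 other genes of the nuclear envelope tested in 4 lists, 4 were called in KO gel against KO media (19%), near the 20.8% of all genes. Of 5 lamin-processing genes, 1 fell: Icmt, the methyltransferase that finishes the prenylated end of lamins, averaged 41 CPM in KO gel and 50.2 CPM in KO media (log2 fold change −0.29, SE 0.07, adjusted p 0.0075 by edgeR). Zmpste24, the prelamin A protease, was at −0.17 (adjusted p 0.0938). Of 8 LEM domain, BAF and torsin genes, Banf1, which encodes BAF, fell to 64.3 CPM in KO gel, against 84.8 CPM in KO media (−0.40, SE 0.09, adjusted p 0.00774). Tor1aip2 was called higher (0.21, adjusted p 0.0262), a call lost without KO gel replicate 1 or 3 or any KO media library. Of 4 further inner membrane genes, Nrm, which encodes nurim, fell to 21.7, 23.9 and 25 CPM in KO gel, against 36.5, 34.6 and 35.2 CPM in KO media (−0.59, SE 0.07, adjusted p 0.000114). It was also lower than in WT gel, with 36.6, 38.3 and 38.8 CPM there (−0.68, adjusted p 5.08e-05), and its gel response differed between KO and WT (−0.60, adjusted p 0.00818). Of 7 other SUN and KASH genes, 4 could be tested and 0 passed by edgeR (1 with an unadjusted p under 0.05), and 1 passed by DESeq2 and by limma-voom. Lrmp, which encodes a KASH protein of lymphocytes, fell in KO gel against WT gel (−0.39, adjusted p 0.00829), at 175, 185 and 171 CPM in KO gel and 254, 218 and 221 CPM in WT gel.

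Of 11 cytoskeletal partners of nesprins, 2 rose in KO gel against KO media, where 11.1% of all genes rose and 9.74% fell, so the count is near that of all genes. Fscn1, an actin-bundling protein that binds a nesprin, had 1.4, 1.25 and 1.65 CPM in KO gel, 0.126, 0.147 and 0.0256 CPM in KO media, 0.222, 0.159 and 0.252 CPM in WT gel and 0.281, 0.186 and 0.32 CPM in WT media. Its log2 fold change was 3.75 (SE 0.35, adjusted p 1.71e-05 by edgeR), on counts of 53, 50 and 66 in KO gel and 8, 6 and 1 in KO media. Dync1h1, the dynein heavy chain, was at 0.29 (adjusted p 0.0233), a call lost without any KO gel library or KO media replicate 2. Of 7 chromatin partners, 3 fell, Cbx5 the furthest, which encodes the Lbr-binding protein HP1 alpha (324 CPM in KO gel and 464 CPM in KO media, −0.52, SE 0.07, adjusted p 0.000372). Of 9 sterol enzymes that work beside the reductase activity of Lbr, 4 fell, with the smallest p for Ebp (−0.42, SE 0.07, adjusted p 0.000973) and the largest fall for Cyp51 (−0.72, SE 0.19, adjusted p 0.0195), and the list's median was −0.42. The calls of Cbx1 and Hdac3 among the chromatin partners and of Cyp51, Dhcr7 and Sc5d among the sterol enzymes were each lost without KO gel replicate 1. Each was also lost without 1 or more of KO gel replicates 2 and 3 and KO media replicates 1 and 2. Of 10 replication and division genes, listed as a gauge of cycling, 9 fell (Tk1 −0.60, adjusted p 0.000101 by edgeR), with a median of −0.52 over the list. The gene not called was Mki67, which averaged 1800 CPM in KO gel and 1830 CPM in KO media. The 9 moved with the B-type lamins, and their part in the falls was not tested. Between WT gel and WT media 0 genes of these lists passed by edgeR, DESeq2 or limma-voom, and 0 had an unadjusted p under 0.05. In KO media against WT media 0 passed by any of the 3 tools, and 1 cytoskeletal and 2 chromatin genes had an unadjusted p under 0.05 by edgeR.

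**Figure D4:**
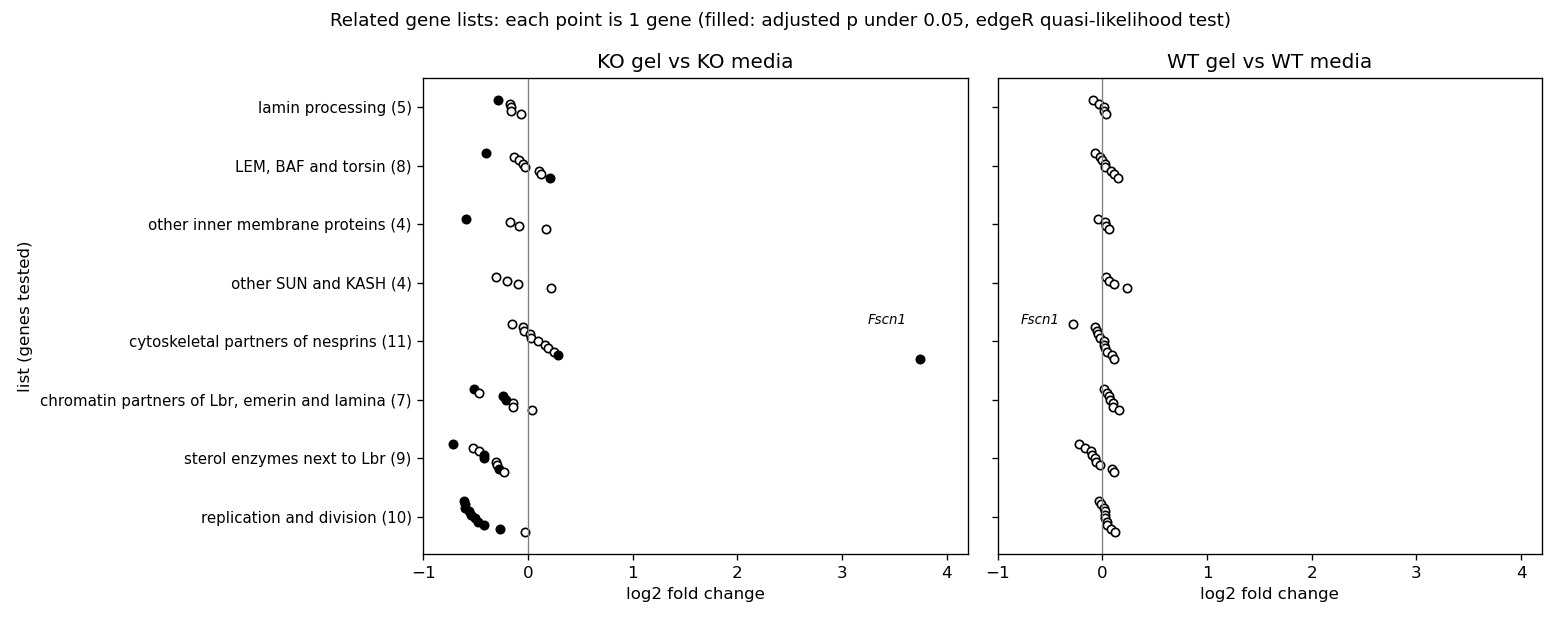
Log2 fold changes of the related gene lists in KO gel against KO media (left) and WT gel against WT media (right), with 1 point per gene tested, filled where the adjusted p is under 0.05 by edgeR's quasi-likelihood test. Lists run down the page with the number of genes tested, beginning with the lamin-processing genes. In KO gel against KO media, 9 of 10 replication and division genes are filled on the left of 0 and Fscn1 lies at 3.75 and no point is filled in the WT panel.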

How the data were processed

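The authors deposited 1 table of raw counts per gene symbol and library, with no normalization, for 12 bulk RNA-seq libraries; 0 columns of other samples were present. Per the labels' protocols, total RNA was isolated with the PureLink kit, depleted of ribosomal RNA with RiboCop and prepared with KAPA RNA HyperPrep. The build was GRCm38 (mm10) and the tools listed are HISAT2, Picard, SAMtools, featureCounts, FastQC and MultiQC, per the submitters' processing notes. Versions, annotation, strand setting and treatment of duplicate and multi-mapping reads were not given in the sources used here. Such settings can alter the counts of overlapping genes.

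Genes were kept by filterByExpr (19010 of 55291), scaled by TMM factors and fitted in the 4 groups at once with edgeR 4.0.16 (quasi-likelihood F test, robust; R 4.3.3), with 5 contrasts and Benjamini-Hochberg adjustment over all genes tested at 0.05. The SE is the absolute log2 fold change over the square root of F. A prior count of 2 was used for log2 levels. Levels per kilobase used the union of GENCODE M21 exons, which matched 96.4% of symbols. Replicates differed by more than counting noise (chi-square per degree of freedom 13.3 to 172), so the error comes from the libraries. A simulation of KO gel against KO media on 19010 genes, 200 of them changed, recovered 90% at 1.5-fold and 100% at 2-fold, with 11 false calls. The changed genes all had a mean log2 CPM of at least 3, which leaves out Lmna. Changes smaller than 1.5-fold were not simulated, so the recovery does not cover the falls of the lamina genes or the rises of the nesprin genes. Fewer genes were changed than the 20.8% called in the data. Limma 3.58.1 and DESeq2 1.42.0 served as alternatives, beside other scalings, filters, blocks and left-out libraries.

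The 10 genes, the related lists and the motifs were chosen with earlier results of these data known. Named were all 10 genes, Dock8, up to 3 genes per list in order of p in KO gel against KO media and further list genes called elsewhere. Deviations from group means correlated between same-numbered WT gel and WT media libraries at 0.786, 0.238 and 0.796 for numbers 1, 2 and 3. For KO gel and KO media the correlations were −0.0399, 0.2 and 0.174, so number 2 was alike in both genotypes. The replicate block was 1 fit of all 12 libraries, so it also paired the KO libraries by number. The block is given beside the WT result of Lmna, and for other comparisons where the dependence on the processing is described.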

Additional observations from a re-analysis of the deposited data

Results flagged for a closer look

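The gel response, in log2 units, differed between KO and WT cells by the interaction term of edgeR's quasi-likelihood test for 2 of the 10 lamina and LINC genes. Of all genes tested 3.35% were called there, and 0.949 to 10.3% with 1 library left out. For Lmnb2 the response in KO minus that in WT was −0.44 (KO gel against KO media −0.37, WT gel against WT media 0.07), and for Emd it was −0.43 (−0.27 in KO and 0.16 in WT). Leaving out 1 library ended the call in 10 of 12 cases for Lmnb2 and in 6 of 12 for Emd. With total counts as the scaling the differences were −0.31 and −0.30, and neither passed (adjusted p 0.23 and 0.203 by edgeR).

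Among the related genes named, the same test gave a difference of −0.60 for Nrm, −0.59 for Cbx5, −0.65 for Tk1, −0.58 for Rrm1 and −0.60 for Pcna, and of 4.03 for Fscn1, whose levels were low (1.25 to 1.65 CPM in KO gel and at most 0.32 CPM in the other groups). With total counts as the scaling, Nrm, Cbx5, Rrm1 and Pcna no longer passed (adjusted p 0.0558, 0.0607, 0.0538 and 0.0665 by edgeR).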

How the results depend on the processing

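Of the values of the 10 genes recomputed in 22 other settings, 984 kept their side of the threshold, 29 moved past it and 52 no longer passed. Some values that were not called changed sign, such as Lbr in WT gel against WT media (0.07, and −0.02 to 0.09 over the settings). For called genes of the related lists 1014 kept their side of the threshold and 118 did not. No called value changed sign. Lmna passed in all 21 settings that could give it in KO gel against KO media (log2 fold change 1.41 to 1.63) and in all 20 in KO gel against WT gel (1.41 to 1.69), and Lmnb1 and Lmnb2 in all 22 in KO gel against KO media. With total counts the genes called were 5 in KO gel against KO media, 2 in KO gel against WT gel and 0 in the difference of gel responses, against 8, 6 and 2 with TMM. Of all genes, total counts called 15.1, 12 and 2.54% in these, against 20.8, 14.8 and 3.35% with TMM. With genes of mean log2 CPM of at least 3, which leaves out Lmna, 3 were called in KO gel against WT gel and 1 in the difference. Of all genes in that fit 15.1 and 2.46% were called. DESeq2 gave 7 in KO gel against WT gel and 4 in the difference (12.9 and 5.14% of all genes), and limma-voom 7 and 3 (14.2 and 3.21%). With no filter, 1 was called in WT gel against WT media, 1 in KO media against WT media (Lmna in both) and 5 in the difference. Of all genes 0.495, 1.1 and 4.49% were then called in these. Leaving out each library in turn gave 6 to 8, 4 to 7 and 0 to 5 in KO gel against KO media, KO gel against WT gel and the difference. The shares of all genes called then ran from 11.2 to 28.2%, 8.31 to 20% and 0.949 to 10.3%. Without WT gel replicate 2 and KO media replicate 3, the libraries with the largest share of ribosomal RNA-like counts (chosen after seeing the data), 5 were called in KO gel against KO media and 0 in the difference. Of all genes 11.3 and 0.154% were then called. The cause of these changes was not tested.

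With the replicate block of same-numbered gel and media libraries, 1 gene (Lmna) was called in WT gel against WT media and 8 in the difference, 3 higher and 5 lower. Of all genes the block called 0.9 and 18% in these, against 0.0368 and 3.35% without it. The numbers did not clearly pair the KO libraries, and 4 of 6 gel libraries correlated best with the media library of their own number. In KO gel against KO media the block added Sun2 (adjusted p 0.0397 by edgeR), where it called 41.1% of all genes. The replicate number as a term gave 8, 7 and 3 genes in KO gel against KO media, KO gel against WT gel and the difference. The shares of all genes called were then 26.5, 18.9 and 5.06%. The ratio of Lmna to the B-type genes in KO gel was 0.0333 per kilobase, 0.0631 in plain CPM and 0.0466 on the longest transcripts, and 0.0313 to 0.0353 with 1 KO gel library left out. Lmna rested on counts of 112 to 723, and its libraries were spread within groups, with 3.74 ± 1.4 CPM in WT media and 15.7 ± 2.66 CPM in KO gel (SD, n = 3 each).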
